A study of Daphnia magna with 2 samples.

Results

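Single-cell libraries of the water flea Daphnia magna that carry the codes MY1 and MY2 were compared with those that carry FO1 and FO2. All 4 codes lie in 1 deposited sample, whose title names males, females, young and old animals. A barcode, the tag that stands for one droplet, was kept when it held at least 500 unique molecular identifiers (UMIs, the tags that mark single captured RNA molecules). This left 698 barcodes on the MY side, 246 of MY1 and 452 of MY2, and 232 on the FO side, 87 of FO1 and 145 of FO2. Together these are 930 of the 2253 barcodes that passed the same minimum in the mixed sample and of the 4352 that passed it in the series. Per the labels, animals came from standard laboratory culture and were taken whole, dissociated with collagenase at 4 mg/ml and processed by inDrops, a method that captures single cells in droplets with barcoded beads. The samples were indexed to let sex, age and body region be compared, but what each code stands for, and the strain and age of its animals, are not given in the sources used here. The codes are therefore only named. They are not called replicates in the labels, and all share 1 sample, so the sides could not be tested against each other.

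Daphnia is a freshwater crustacean that alternates between parthenogenetic and sexual reproduction. Females mostly produce broods of genetically identical daughters, and males appear when environmental cues act on the mother through juvenile hormone. In animal germ cells, Tudor and PIWI proteins work in the piRNA pathway, in which small RNAs silence transposons. Germ cells divide while they stay joined by cytoplasmic bridges, which kinesins and other proteins of cell division help to form. Cohesin and condensin are rings built on SMC proteins that hold sister chromatids together and compact chromosomes. Lipid carriers, yolk receptors, ferritins and ion pumps are known in arthropods from fat body, ovary, gut and gill-like epithelia.

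The kept barcodes held 306589 UMIs for MY1, 616309 for MY2, 99648 for FO1 and 172296 for FO2. Both MY codes were thus deeper than both FO codes, and so were their barcodes, with medians of 968.5 and 1087.5 UMIs against 838 and 844. After each barcode was thinned to 500 UMIs, the median number of genes was 418 in MY1 and 424 in MY2 but 343 in FO1 and 348 in FO2. Levels are given as counts per 1000000 of a code's sum (CPM), and a single gene with 0 counts could have had up to 9.79 CPM in MY1, 4.87 in MY2, 30.1 in FO1 and 17.4 in FO2, the level of 3 counts. A difference between sums cannot tell fewer cells of a type from less RNA per cell. With every code thinned to the smallest total, 2031 genes were higher in MY and 948 lower by the rule given below, 564 and 238 of them by at least 4-fold. CPM values are not per length and do not compare one gene with another.

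Of the 33957 genes in the files, 4947 had at least 50 counts over the 4 sums, and 3558 of these carry a symbol. Both MY codes were above both FO codes for 2424 genes (49% of those examined) and below them for 1049 (21.2%), while the sides overlapped for 1474. Genes that do not differ can also meet this rule, as only 2 codes a side were ordered. The counts therefore do not give the number of genes that differ between the sides. With the further requirement of a 4-fold ratio between the pooled sides, 594 genes (12%) were higher in MY and 219 (4.43%) lower. Genes of the first group held 13.2% of all UMIs in MY1 and 13.9% in MY2 but 1.90% in FO1 and 1.87% in FO2. Those of the second group held 2.03% and 1.56% in the MY codes against 16.3% and 16.6% in the FO codes. These shares describe genes that were chosen by the same values.

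The excess of higher over lower genes depended on how the codes were scaled. The median log2 ratio of MY over FO across all 4947 genes was 0.44, and it was 0.06 after TMM scaling, which sets the bulk of genes equal. Under TMM, 1802 genes were higher and 1570 lower, and 384 and 301 with the 4-fold requirement. Median-of-ratios scaling gave 2027 and 1363 genes, 463 and 274 of them with a 4-fold ratio. Without FO2, 369 genes were higher in MY by at least 4-fold, where 594 were so with all 4 codes. Gene groups below are therefore read against the median of all genes. Counts of members are read against the shares of all genes, 49% higher and 21.2% lower. Under TMM scaling these shares were 36.4% and 31.7%.

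Across the 4947 genes, log2(CPM + 1) of MY1 and MY2 correlated with Pearson's r of 0.788, and that of FO1 and FO2 with 0.726. Between the sides r lay between 0.367 and 0.398. At an equal depth of 99648 counts per code, the values were 0.664 within MY, 0.707 within FO and 0.320 to 0.360 between them. These coefficients run across genes, which are not independent, and they describe the libraries only.

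**Figure D1:**
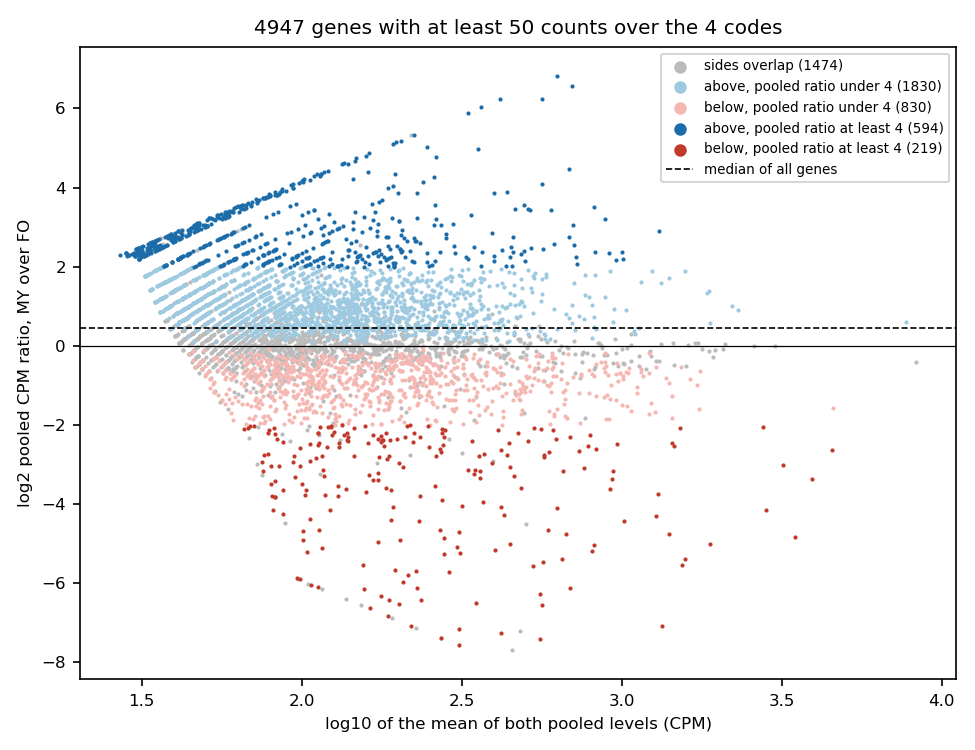
Log2 ratio of pooled CPM, MY over FO, for each of 4947 genes against the log10 mean of both pooled levels. Dark points mark the 594 genes higher and the 219 genes lower in both MY codes by at least 4-fold; the straight upper and lower edges are genes whose pooled count on one side was under 3 and was set to 3, and the dashed line is the median of all genes at 0.44.

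The genes that stood farthest above FO were led by TEX14/ILK, SPINT2/PPN and TDRD1/TUD. They were ranked by the gap between the lower MY code and the higher FO code, and the first 12 with a symbol are described. Genes are given here by the human and fly homology labels of the files, followed by the identifier. The leading gene was TEX14/ILK (DAPMA1EVG032141), and its symbols point to different proteins. TEX14 is needed for bridges between germ cells in mice, while ILK is an integrin-linked kinase in the fly. It had 372 counts in MY1, 909 in MY2, 0 in FO1 and 4 in FO2, or 1213, 1475, 0 and 23.2 CPM. Both MY codes were far above both FO codes, by 94.4-fold for the pooled sides (95% counting interval 36.8 to 347).

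TDRD1/TUD (DAPMA1EVG024108) belongs to the Tudor proteins, which organise piRNA granules in fly and mouse germ cells. Its 290 and 733 counts in the MY codes stood against 1 and 3 in the FO codes, or 946 and 1189 CPM against 10.04 and 17.4. The pooled ratio was 75.4 (29.3 to 277). RBM46/SYP (DAPMA1EVG032562) is named for RNA-binding proteins, of which RBM46 is required for germ cells to enter meiosis in mice. It had 244 and 522 counts in MY against 0 and 1 in FO, a ratio of 226 with a counting interval from 40.4 to 8927, since 1 FO count sets it.

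Proteins of the spindle, chromosome and cleavage furrow followed. KIF23/PAV (DAPMA1EVG012797), a kinesin of the central spindle that acts in cytokinesis, had 887 and 1155 CPM in the MY codes and 50.2 and 69.6 in the FO codes, a pooled ratio of 17.1 (10.6 to 29.4). KIF4A/KLP3A (DAPMA1EVG029235), a kinesin of chromosome arms and the spindle midzone, had 346 and 386 against 20.1 and 29.0 CPM. That identifier is shared with another gene of the files, so its reads may be split. SMC3 (DAPMA1EVG026726), named for a core subunit of cohesin, had 434 and 498 CPM against 10.04 and 17.4, and a second gene of the same name is given below.

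SNAPC1 (DAPMA1EVG015356) and SNAPC3/PBP49 (DAPMA1EVG017403) are named for subunits of the complex that starts transcription of small nuclear RNAs. SNAPC1 had 561 and 756 CPM in MY against 40.1 and 11.6 in FO. SNAPC3/PBP49 had 329 and 381 CPM against 30.1 and 17.4. RANBP9/RANBPM (DAPMA1EVG015946), named for a subunit of a ubiquitin ligase complex, had 444 and 537 CPM against 20.1 and 17.4. VPS13D (DAPMA1EVG023969), a lipid transfer protein at contacts between organelles, had 519 and 722 CPM against 10.04 and 5.80. For this last gene the FO side held 2 counts, and the pooled ratio of 89.0 has a counting interval from 24.5 to 736.

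SPINT2/PPN (DAPMA1EVG020094) and C1GALT1/C1GALTA (DAPMA1EVG028641) differed from the other genes in how their counts were spread over barcodes. The first is named for protease inhibitors and for papilin, an extracellular matrix protein of the fly, and the second for the enzyme that extends O-linked sugar chains. SPINT2/PPN had 367 and 790 counts in MY against 0 and 1 in FO, a ratio of 341 with an interval from 61.1 to 13477. Only 49 of the 698 MY barcodes held a UMI of it, and 10 of them held 77.5% of its counts. C1GALT1/C1GALTA had 198, 212, 1 and 0 counts, and 10 of the 66 MY barcodes with a UMI held 52.0% of its MY counts. By contrast, TEX14/ILK was found in 441 of the 698 MY barcodes and TDRD1/TUD in 413, and the fullest 10 barcodes held 8.67% and 8.11% of their MY counts.

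Of the genes without a symbol, DAPMA1EVG024229, DAPMA1EVG016374 and DAPMA1EVG018614 led the ranking. DAPMA1EVG024229 had 171 and 498 counts in the MY codes and none in FO. With 3 counts set for both FO codes together the MY side was 65.7-fold higher, and the 95% counting interval starts at 53.3. It was found in 43 MY barcodes, and 10 of them held 84.5% of its counts. DAPMA1EVG016374 had 545 and 466 CPM in MY against 10.04 and 34.8 in FO. DAPMA1EVG018614 had 391 and 372 CPM against 20.1 and 0.

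**Figure D2:**
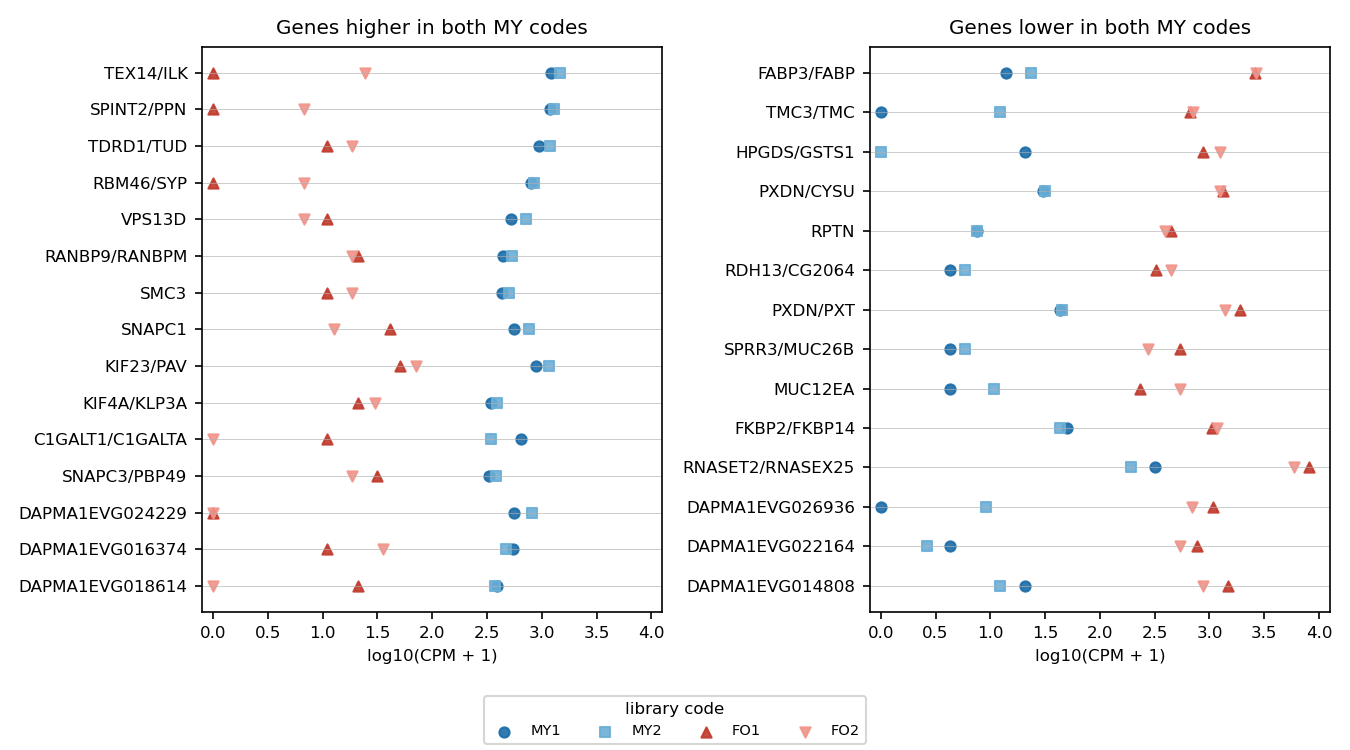
Level of each gene named in the text, as log10(CPM + 1), in the 4 library codes, with genes higher in MY on the left and lower in MY on the right, both in order of their gap. In every row both MY codes lie on one side of both FO codes, which is how the genes were chosen; TEX14/ILK runs from 0 and 23.2 CPM in FO to 1213 and 1475 CPM in MY.

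The 12 genes higher in MY were also counted per barcode. They were chosen in these same barcodes, so the difference between the sides follows from the choice and is a description, and the intervals cover counting error only. After thinning to 500 UMIs, at least 1 of the 12 was found in 77.6% of MY1 barcodes (exact 95% interval 71.9 to 82.7) and in 86.9% of MY2 barcodes (83.5 to 89.9). The same held for 10.3% of FO1 barcodes (4.84 to 18.7) and 9.66% of FO2 barcodes (5.38 to 15.7). At least 3 of the 12 were found in 48.8% of MY1 and 57.5% of MY2 barcodes, in 0 of 87 FO1 barcodes, and in 1 of 145 FO2 barcodes. The median was 2 genes per barcode in MY1 and 3 in MY2, and the highest number was 8.

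Pairs of these genes differed in whether they fell in the same barcodes. At equal depth, 308 of the 698 MY barcodes held TEX14/ILK, and 51.6% of them also held TDRD1/TUD, against 29.0% of the 390 without it. RBM46/SYP was found in 41.6% of barcodes with TEX14/ILK and in 23.3% of those without, and RANBP9/RANBPM in 29.2% and 14.1%. SPINT2/PPN went the other way, in 2.60% of barcodes with TEX14/ILK and 6.41% of those without. Of the 33 barcodes with SPINT2/PPN, 42.4% also held DAPMA1EVG024229, against 2.86% of the 665 others. TDRD1/TUD was in 21.2% of those 33 barcodes and in 39.8% of the others, the reverse of the pairing between TEX14/ILK and TDRD1/TUD.

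**Figure D3:**
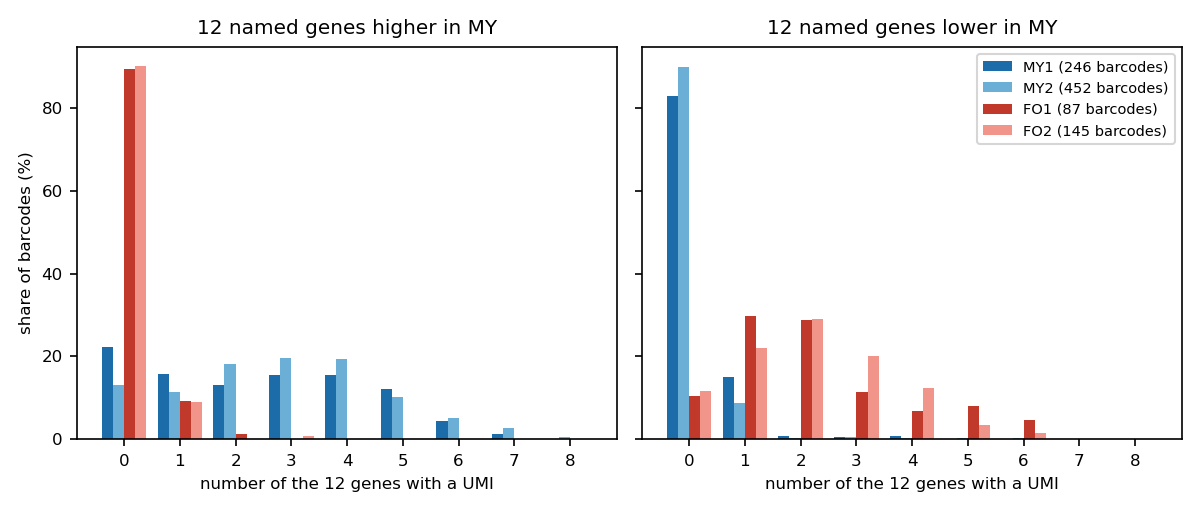
Share of barcodes, in percent and thinned to 500 UMIs each, by the number of the 12 named genes with at least 1 UMI, for genes higher in MY (left) and lower in MY (right). In 89.7% of FO1 and 90.3% of FO2 barcodes none of the genes higher in MY was found, and in 82.9% of MY1 and 90.04% of MY2 barcodes none of the genes lower in MY.

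Genes of DNA replication were higher in MY almost throughout. Of 21 examined genes on this list, both MY codes were above both FO codes for 20 and below for none, where 49% and 21.2% of all genes were so, and 10 were higher by at least 4-fold. The median log2 ratio of the list was 1.75, which is 1.31 above that of all genes. Under TMM scaling 15 were higher and none lower. TOP2A/TOP2 (DAPMA1EVG016347), the topoisomerase that untangles replicated chromosomes, had 1148 and 1246 CPM in MY and 171 and 226 in FO. Of the MCM genes, which encode the replicative helicase, MCM3 (DAPMA1EVG027423) had 300.1 and 394 CPM against 30.1 and 46.4. MCM4/DPA (DAPMA1EVG015342) had 427 and 499.8 against 120.4 and 238. Both genes named MCM6, which share the identifier DAPMA1EVG025209, were also higher, the first with 28, 91, 0 and 0 counts. CDC45/CDC45L (DAPMA1EVG019954), which joins the helicase, had 153 and 237 CPM against 20.1 and 29.0, and FEN1 (DAPMA1EVG021055), the nuclease that trims Okazaki fragments, 261 and 294 against 50.2 and 17.4. The smaller differences were those of GINS3/PSF3 (DAPMA1EVG011772), at 140.2 and 203 against 110.4 and 133 CPM, and RRM2/RNRS (DAPMA1EVG020561), at 365 and 461 against 171 and 296 CPM. PRIM2/DNAPOL (DAPMA1EVG013319) was the exception, since its 35.9 CPM in MY1 lay under the 40.1 in FO1.

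Condensin and cohesin genes had the highest median of the lists. It was 2.29 on the log2 scale, 1.85 above all genes. Of 14 genes 13 were higher in MY and none was lower, 8 of them by at least 4-fold, and TMM scaling left 13 higher. All 6 genes named for condensin subunits were among these. NCAPH/BARR (DAPMA1EVG015224) had 176 and 211 CPM in MY against 10.04 and 23.2 in FO. NCAPG/CAP (DAPMA1EVG014881) had 309.9 and 381 CPM against 10.04 and 75.5, and SMC4/GLU (DAPMA1EVG034438) 277 and 409 against 50.2 and 81.3. NIPBL/NIPPED (DAPMA1EVG023864), the loader of cohesin, had 427 and 665 CPM against 100.4 and 104. Among genes named for cohesin subunits, SMC1A/SMC1 (DAPMA1EVG021684) had 548 and 466 against 201 and 232 CPM, and RAD21/VTD (DAPMA1EVG010950) 163 and 208 against 60.2 and 98.7. The second gene named SMC3 (DAPMA1EVG027250) had 91.3 and 112 CPM against 60.2 and 52.2, a log2 ratio of 0.93 where that of the leading SMC3 gene was 5.02. WAPL (DAPMA1EVG029766), which releases cohesin, overlapped between the sides by a small margin, at 127 and 170.4 against 90.3 and 128 CPM.

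On the list of mitosis genes and cyclins, genes of the spindle and cleavage were mostly higher in MY. No cyclin gene of the A, B or D type was. Of 22 genes 15 were higher and 4 lower, or 68.2% and 18.2%, where 49% and 21.2% of all genes were so. By at least 4-fold, 9 were higher, where 12% of all genes were so. The median log2 ratio was 1.64, and TMM left 13 higher and 5 lower, with 5 of the former past 4-fold. KIF11/KLP61F (DAPMA1EVG027929), the kinesin that pushes spindle poles apart, had 1425 and 1796 CPM in MY and 361 and 302 in FO. PRC1/SOFE (DAPMA1EVG015223), whose human name is that of a protein bundling midzone microtubules, had 1814 and 2322 against 442 and 772. AURKA/AURA (DAPMA1EVG020497), the centrosomal Aurora kinase, had 267 and 406 against 140.5 and 46.4, and both genes named BUB1B/BUBR1, which share the identifier DAPMA1EVG012972, were higher by over 4-fold. Of the 4 examined cyclin genes of the A, B and D types, by contrast, 3 were lower in MY and 1 overlapped, under all of the scalings. The one that overlapped had a log2 ratio of 1.15 for the pooled sides, in favour of MY. CCNB2/CYCB (DAPMA1EVG019766), a B-type cyclin that drives entry into mitosis, had 404 and 581 CPM in MY but 1525 and 1457 in FO. CCNB1/CYCB (DAPMA1EVG030556) had 597 and 905 against 1104 and 1405, and CCND2/CYCD (DAPMA1EVG013332), a cyclin of the first gap phase, 277 and 300.2 against 432 and 476. TPX2 (DAPMA1EVG033257), an activator of Aurora kinase, was the fourth lower gene at 215 and 230.4 against 281 and 261 CPM. MAD2L1/MAD2 (DAPMA1EVG026574) and BUB3 (DAPMA1EVG027740), both of the spindle checkpoint, overlapped between the sides. The gene GZF1/TTK (DAPMA1EVG018956), higher in MY, entered the list through a fly symbol that differs from the human kinase of that name.

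Histone genes split as well. Of 9 examined, 7 were higher in MY, 1 was lower and 1 overlapped, where 49% of all genes were higher and 21.2% lower. Under TMM 6 were higher and 2 lower. The linker histone H1F0/HIS1:CG33864 (DAPMA1EVG024508) had 825 and 745 against 201 and 435 CPM, and H1F0/HIS1:CG33861 (DAPMA1EVG004595) 949 and 675 against 140.5 and 151. HIST2H2AB/HIS2A:CG33865 (DAPMA1EVG019142) had 2707 and 2697 against 863 and 1143 CPM. The one lower gene, HIST1H4A/HIS4:CG33909 (DAPMA1EVG011260), had 1 and 1 counts in MY and 15 and 38 in FO. Histone genes exist in many near-identical copies, and 4 of the 9, this one and the second linker histone among them, share their identifier with another gene, so reads may be divided among copies.

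**Figure D4:**
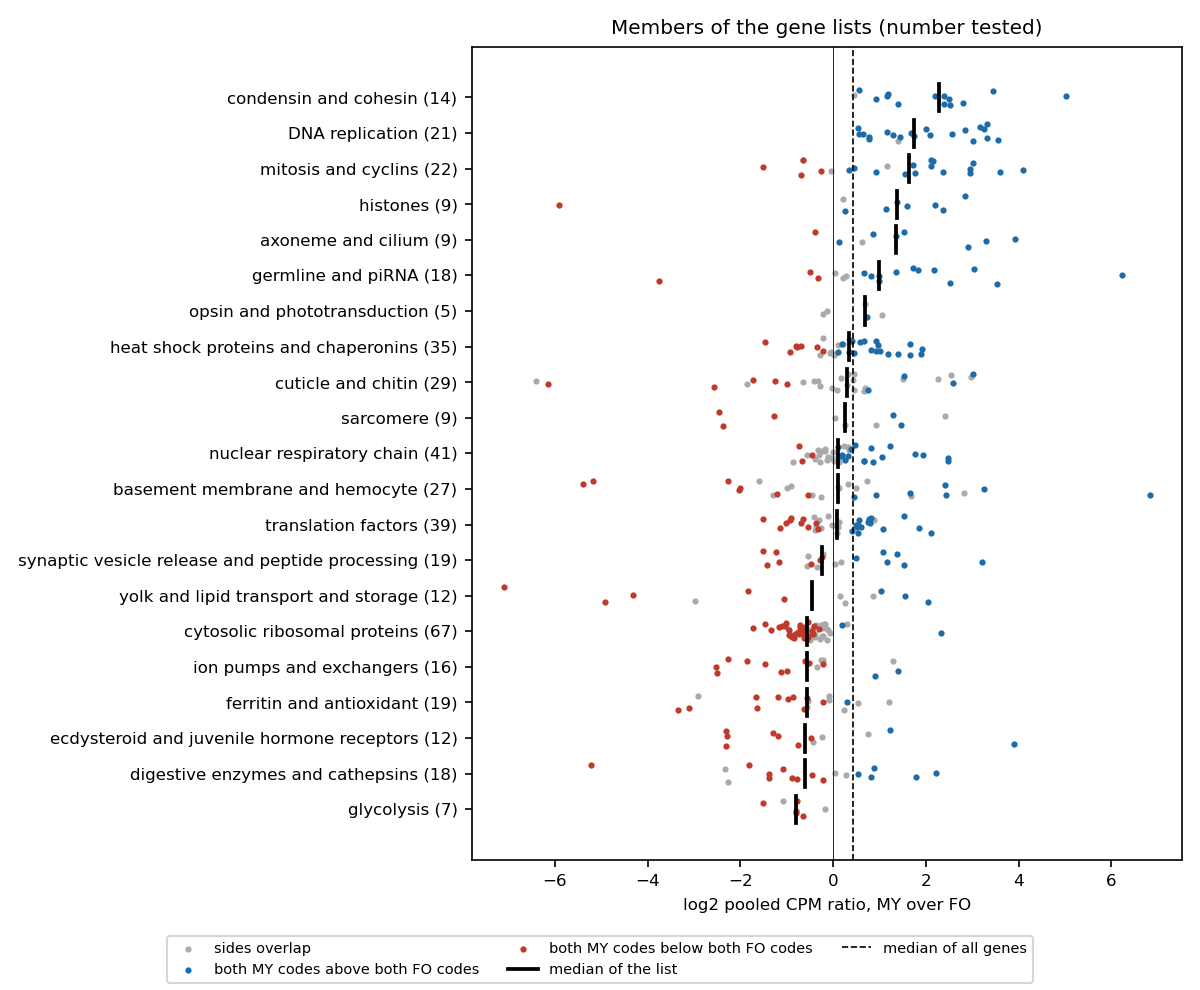
Log2 ratio of pooled CPM, MY over FO, of each examined member of the gene lists, 1 point per gene, coloured by whether both MY codes lay above, below or among the FO codes, with the list's median as a bar and that of all genes, 0.44, as a dashed line. Condensin and cohesin (median 2.29) and DNA replication (1.75) lie to the right of the line, and glycolysis (-0.80) lies farthest to the left.

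Germline and piRNA genes were higher in MY for 12 of 18 and lower for 3, or 66.7% and 16.7%. Of all genes 49% were higher and 21.2% lower. By at least 4-fold, 5 were higher and 1 lower, where 12% and 4.43% of all genes were so. The list's median log2 ratio was 0.99, which is 0.55 above that of all genes, and TMM left 11 higher and 3 lower. The higher members were mostly Tudor genes: of 11 genes so named, 8 were higher in MY, 1 was lower and 2 overlapped, and under TMM 7 were higher and 1 lower. After TDRD1/TUD (DAPMA1EVG024108), TDRKH/PAPI (DAPMA1EVG032873), which in fly and mouse tethers PIWI proteins to mitochondria, had 31, 87, 0 and 3 counts. A second TDRD1/TUD gene (DAPMA1EVG016991) had 147 and 199.6 CPM in MY against 20.1 and 23.2 in FO. TDRD9/SPN (DAPMA1EVG017350), a helicase of the piRNA pathway in mice, had 176 and 242 against 70.3 and 63.8. TDRD15/TUD (DAPMA1EVG024057) was the lower one, at 88.1 and 97.4 against 130.5 and 133 CPM.

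The 4 PIWI-named genes went different ways. PIWIL1/AUB (DAPMA1EVG018783) had 144 and 327 counts in MY and 8 and 16 in FO, or 469.7 and 531 against 80.3 and 92.9 CPM. PIWIL1/AUB (DAPMA1EVG018095) had 9 and 6 counts in MY and 23 and 37 in FO, or 29.4 and 9.73 against 231 and 215 CPM. The log2 ratios of these genes with the same name were 2.53 and -3.76. PIWIL1/AUB (DAPMA1EVG012030) had 326 and 294 CPM against 381 and 377, and PIWIL1/AGO3 (DAPMA1EVG022100) overlapped, at 261 and 224 against 271 and 151. GCNA/CG14814 (DAPMA1EVG021016), a germ cell protease domain protein that guards genome integrity, had 388 and 513 CPM against 191 and 179.9. BOLL/BOL (DAPMA1EVG028288), an RNA-binding protein that the fly needs for meiosis in males, had 209 and 178 CPM in MY and 90.3 and 98.7 in FO. AMBRA1/ZUC (DAPMA1EVG028571), also higher in MY, has a human symbol of the autophagy pathway and may not be a piRNA gene.

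**Figure D5:**
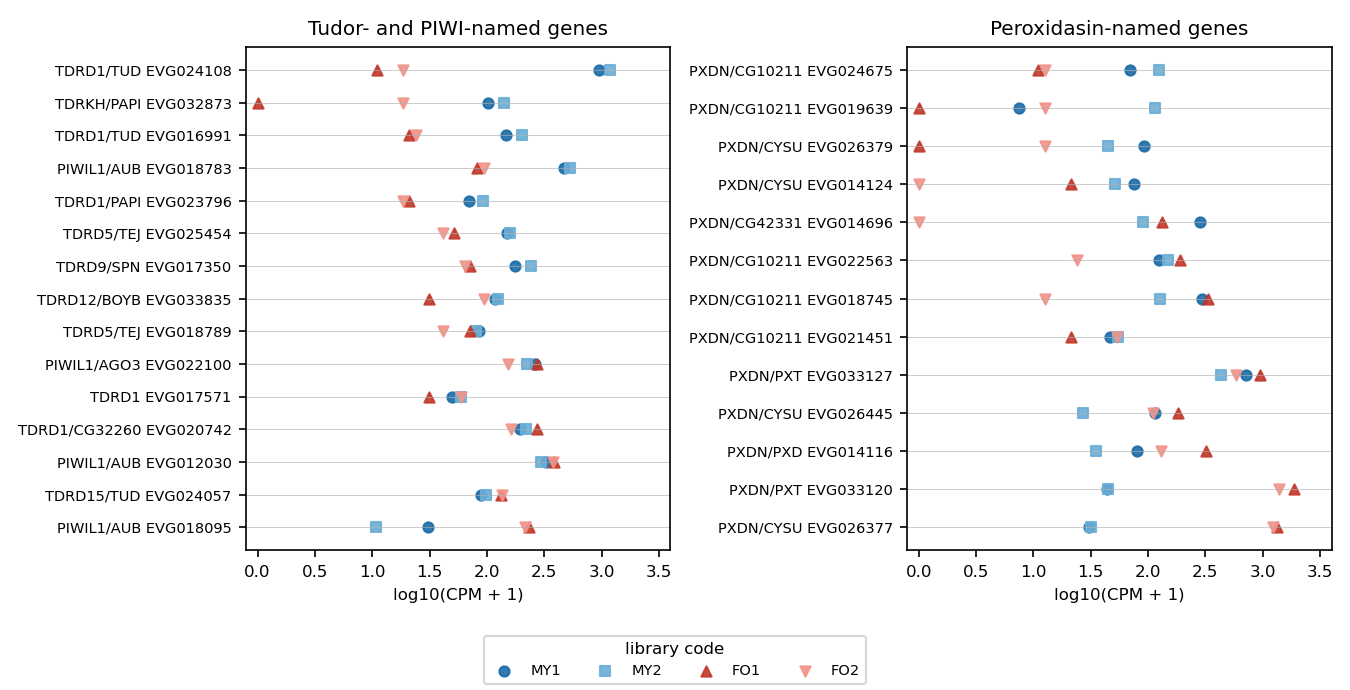
Level, as log10(CPM + 1), of each examined gene named for Tudor or PIWI proteins (left) and for peroxidasin (right) in the 4 library codes, ordered by the log2 ratio of MY over FO. Genes with the same name lie at both ends: PIWIL1/AUB has log2 ratios of 2.53 and -3.76, and peroxidasin-named genes run from 3.25 to -5.39.

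Few meiosis and axoneme genes had enough counts. MSH5/SPEL1 (DAPMA1EVG018134), whose human name is that of a meiotic crossover factor, had 30 and 86 counts in MY and 1 and 4 in FO. MLH3/PMS2 (DAPMA1EVG033019), a mismatch repair protein, overlapped at 81.5 and 149 against 140.5 and 63.8 CPM. Of 9 axoneme and cilium genes, out of 37 in the files, 7 were higher in MY and 1 was lower. The shares of all genes were 49% and 21.2%, and TMM left 5 and 2 of the 9. DNAH5/CG9492 (DAPMA1EVG019898) and DNAI1/CG9313 (DAPMA1EVG011560), a heavy and an intermediate chain of the dynein that moves cilia and sperm tails, had 43, 111, 1 and 2 counts and 52, 116, 1 and 4 counts. The median of this list moved from 0.91 above all genes to -0.74 relative to them when at least 200 counts per gene were required.

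Sex determination genes were sparse. Doublesex directs male traits in Daphnia. Of the genes named DMRT1/DSX, one (DAPMA1EVG027481) had 6 counts in MY1, 11 in MY2, 1 in FO1 and 0 in FO2, and the other (DAPMA1EVG027480) had 14, 4, 0 and 5. Both were under the minimum of 50 counts, and a difference between the sides was not detectable at this depth. Of 23 genes on the list 3 were examined. FEM1A/CG6966 (m000011F_s17.19) is named for an adaptor of a ubiquitin ligase first known from sex determination in worms. It had 83 and 103 counts in MY and none in FO, and MY was 18.3-fold higher with the FO count set to 3. FEM1C/M (DAPMA1EVG022520) had 84.8 and 174 CPM against 80.3 and 75.4, a difference that TMM scaling did not keep, and FEM1B/FEM (DAPMA1EVG020448) overlapped.

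The genes that stood farthest below FO were led by FABP3/FABP, TMC3/TMC and HPGDS/GSTS1. FABP3/FABP (DAPMA1EVG014822), a carrier of fatty acids inside cells, had 4 counts in MY1, 14 in MY2, 261 in FO1 and 461 in FO2, or 13.0, 22.7, 2619 and 2676 CPM. FO was 136-fold higher (85.5 to 231), and 84 of the 232 FO barcodes held a UMI of it. TMC3/TMC (DAPMA1EVG031209), of the transmembrane channel-like family, had 0 and 7 counts in MY against 66 and 122 in FO, a 91.1-fold difference (43.4 to 230).

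Several genes carry the human symbol of peroxidasin, a heme peroxidase that links collagen chains in the basement membrane. Their fly symbols differ, CYSU, PXT and CG10211 among them, so these genes may not share that role. PXDN/CYSU (DAPMA1EVG026377) had 29.4 and 30.8 CPM in MY and 1335 and 1236 in FO, a ratio of 41.9 in favour of FO (28.5 to 64.0). PXDN/PXT (DAPMA1EVG033120) had 42.4 and 43.8 against 1887 and 1381 CPM. Other genes of that name did not follow. Of 13 peroxidasin-named genes, 3 were lower in MY, 3 higher and 7 overlapped, and all 6 that differed did so by at least 4-fold, while TMM gave 3 higher and 5 lower. PXDN/CG10211 (DAPMA1EVG024675) was at the other end, with 21, 76, 1 and 2 counts.

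Enzymes made up much of the rest. RNASET2/RNASEX25 (m000028F_a0.112), a secreted or lysosomal T2 ribonuclease, had 319.6 and 193 CPM in MY and 8048 and 5932 in FO, and a UMI of it was found in 157 of the 232 FO barcodes. FKBP2/FKBP14 (DAPMA1EVG021629), which helps proteins fold in the endoplasmic reticulum, had 48.9 and 42.2 against 1054 and 1172 CPM. HPGDS/GSTS1 (DAPMA1EVG020015), a sigma-class glutathione transferase, had 6 and 0 counts in MY and 87 and 214 in FO, but 10 of the 232 FO barcodes held 96.0% of the FO counts. RDH13/CG2064 (DAPMA1EVG013139), a short-chain dehydrogenase, had 1, 3, 32 and 76 counts, with 89.8% of the FO counts in 10 barcodes. In these genes few barcodes set the FO level.

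The mucin-named genes SPRR3/MUC26B (DAPMA1EVG009908) and MUC12EA (DAPMA1EVG012802) had 1, 3, 54 and 47 counts and 1, 6, 23 and 92 counts. Both share their identifiers with other genes. RPTN (DAPMA1EVG013642) had 2, 4, 44 and 67 counts. Without a symbol, DAPMA1EVG026936, DAPMA1EVG022164 and DAPMA1EVG014808 led, with 0, 5, 107 and 119 counts, with 1, 1, 76 and 92, and with 6, 7, 148 and 150. All 3 were below FO in both MY codes.

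The genes lower in MY were counted per barcode in the same way, and here too the choice of genes fixes the difference between the sides. At least 1 of the 12 was found, after thinning, in 89.7% of FO1 barcodes (81.3 to 95.2) and 88.3% of FO2 barcodes (81.9 to 93.02). In MY1 it was 17.1% (12.6 to 22.4) and in MY2 9.96% (7.35 to 13.1). At least 3 were found in 31.0% of FO1 and 37.2% of FO2 barcodes but in 1.22% of MY1 and 1.11% of MY2 barcodes. RNASET2/RNASEX25 alone was in 55.2% and 61.4% of the thinned FO barcodes and 11.8% and 5.31% of the MY barcodes. In MY1 barcodes under 500 UMIs RNASET2/RNASEX25 (m000028F_a0.112) had 629.8 CPM and in those of MY2 446, above the 319.6 and 193 CPM of the kept barcodes. The part of free RNA in these shares was not tested.

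Yolk and lipid transport genes were lower in MY in 5 of 12 and higher in 3, with 3 against 1 past 4-fold. The median log2 ratio was -0.46, or -0.90 relative to all genes, and -3.43 relative to them when at least 200 counts per gene were required. LRP4/YL (DAPMA1EVG034371), whose fly symbol is that of the receptor that takes yolk into the oocyte, had 147 and 112 CPM in MY and 2158 and 2606 in FO. A second gene with that fly symbol, CCBE1/YL (DAPMA1EVG020574), had 9, 27, 4 and 79 counts and overlapped. NPC2/NPC2A (DAPMA1EVG015044), a sterol carrier of the lysosome, had 26.1 and 6.49 against 130.5 and 546 CPM. PMP2/FABP (DAPMA1EVG011124), another fatty acid carrier, had 300.1 and 295 CPM against 672 and 1277. VLDLR/LPR2 (DAPMA1EVG034126), named for a lipoprotein receptor, was on the other side with 267 and 263 against 130.5 and 128 CPM.

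Ferritin and antioxidant genes were lower in MY for 10 of 19 and higher for 1, and under TMM for 12 and 0, with a median relative to all genes of -1.007. All 3 ferritin genes examined were lower, with any of the scalings. FTH1/FER3HCH (DAPMA1EVG029148), an iron-storing heavy chain, had 890.4 and 604 CPM in MY and 6061 and 7777 in FO, 10.2-fold higher (9.35 to 11.2). The other 2 had 130.5 and 174 against 241 and 2014 CPM (DAPMA1EVG016483) and 159.8 and 138 against 171 and 319 (DAPMA1EVG024556). TXN/TRX (DAPMA1EVG030747), a thioredoxin, had 385 and 235 CPM against 873 and 911, and PRDX1/JAFRAC1 (DAPMA1EVG023862), a peroxiredoxin, 558 and 398 against 1064 and 998. SOD1 (DAPMA1EVG003944) overlapped, as it had 1606 CPM in FO1 but 174 in FO2, and 258 and 9.73 in the MY codes.

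Ion pump genes were lower in MY for 10 of 16 and higher for 2, and the median relative to all genes was -1.005. All 4 sodium pump genes were lower, among them ATP1B1/NRV3 (DAPMA1EVG001527), a beta subunit, at 248 and 290.4 CPM against 1305 and 1329. Of 9 genes of the vacuolar proton pump 6 were lower and 3 overlapped, ATP6V0C/VHA16 (DAPMA1EVG027708) having 502 and 339 CPM against 1284 and 1509. CA2/CAH1 (DAPMA1EVG014910), a carbonic anhydrase, had 365 and 256 against 1556 and 1701 CPM.

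Digestive enzymes and cathepsins were lower in 9 of 18 and higher in 5, where 21.2% and 49% of all genes were so, and their median relative to all genes was -1.05. LIPF/LIP4 (DAPMA1EVG017797), an acid lipase, had 11 and 4 counts in MY and 17 and 149 in FO. CTSC/SWIM (DAPMA1EVG023900) and CTSB/CTSB1 (DAPMA1EVG019691), lysosomal proteases, had 202 and 149 against 391 and 459 CPM and 444 and 344 against 702 and 615. AMY1A/AMY (DAPMA1EVG018035), an amylase, was higher in MY, at 271 and 269 against 161 and 139 CPM. Of 7 glycolysis genes 5 were lower, none was higher and none reached 4-fold. PKM/PYK (DAPMA1EVG030946), pyruvate kinase, had 81.5 and 69.8 CPM against 120.4 and 261.

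Cytosolic ribosomal protein genes were lower in MY for 36 of 67 and higher for 2, and under TMM for 56 and 1. The differences were small, with a median log2 ratio of -0.56, or -0.997 relative to all genes, and none was lower by 4-fold. Summed, the list had 51453 and 40835 CPM in MY1 and MY2 against 52435 and 69259 in FO1 and FO2. In barcodes under 500 UMIs the sums overlapped, at 78354 and 75567 CPM in MY against 67133 and 76692 in FO. RPL30 (DAPMA1EVG033282) had 313 and 180.1 CPM against 662 and 789, and RPS20 (DAPMA1EVG025534) 427 and 352 against 592 and 1161. The list also holds MRTO4/RPLP0, RPS6KB1/S6K and RPS6KA5/JIL, whose human symbols are those of a ribosome assembly factor and kinases. The one gene higher by over 4-fold, RPL3 (DAPMA1EVG030552), had 24, 44, 0 and 4 counts and shares its identifier with another gene.

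Translation factor genes were spread to both sides, 15 higher and 10 lower of 39, and TMM reversed the order to 7 and 14. Subunits of eIF2B, which recharges the factor that carries the initiator tRNA, were higher in MY for 4 of 5 genes and for 3 under TMM. EIF2B1/EIF2BALPHA (DAPMA1EVG017449) had 232 and 313 CPM against 50.2 and 75.5. The median log2 ratio of the 39 translation factor genes relative to all genes was -0.34 and kept its sign in all 16 alternatives. TMM and median-of-ratios scaling shift all genes alike, so they could not change it. Of 41 nuclear genes of the respiratory chain 17 were higher and 3 lower, but 8 and 12 under TMM. Their median relative to all genes was -0.32 and was negative in all 16 alternatives, though only -0.041 without FO2. TMM and median-of-ratios scaling could not change this value either. UQCRFS1/RFESP (DAPMA1EVG011655), the iron-sulphur subunit of complex III, and NDUFA10/ND (DAPMA1EVG019640), a subunit of complex I, stood apart with 812 and 738 against 100.4 and 157 CPM and 861 and 894 against 171 and 151. Heat shock and chaperonin genes were higher for 19 of 35 and lower for 7, but for 12 and 11 under TMM. These shares of 54.3% and 20% are near the 49% and 21.2% of all genes, and the median relative to all genes was -0.098. CCT3 (DAPMA1EVG011412), a chaperonin subunit that helps actin and tubulin fold, had 469.7 and 492 CPM against 151 and 157.

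Ecdysteroid and juvenile hormone receptors and targets were lower in MY for 7 of 12 and higher for 2, against 21.2% and 49% of all genes, with a median relative to all genes of -1.05. NR1H3/ECR (DAPMA1EVG014763), whose fly symbol is the receptor of the moulting hormone, had 91.3 and 60.0 CPM in MY and 271 and 395 in FO. ELF1/EIP74EF (DAPMA1EVG025771), an early ecdysone response gene in the fly, had 97.8 and 92.5 against 682 and 337 CPM. NR2F2/SVP (DAPMA1EVG021910), an orphan nuclear receptor, was on the other side with 46, 107, 0 and 2 counts. CTH/EIP55E, MSRA/EIP71CD, CDK17/EIP63E and EIPR1/CG10646 are on the list by symbol and are not receptors by their human names.

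Lists that mark tissues moved in part with the sides. Sarcomere genes summed to 3728 and 4163.5 CPM in the MY codes and 5961 and 5804 in the FO codes, and 2 of 9 were higher and 3 lower. MYL9/SQH (DAPMA1EVG025392) and MYH10/ZIP (DAPMA1EVG017440, an identifier shared with another gene) are named for non-muscle myosin. Both were lower, at 568 and 376 against 2449 and 2420 CPM and 297 and 156 against 1114 and 1004. The higher sarcomere sums of the FO codes rest on these 2 genes, so the sums do not show more muscle RNA in FO. ACTN1/ACTN (DAPMA1EVG013827), alpha-actinin, was higher at 929.6 and 1173 against 532 and 395 CPM. Synaptic and peptide processing genes summed to 2443 and 2497 against 3442 and 2531 CPM, with 6 of 19 higher and 7 lower. SYN2/SYN (DAPMA1EVG015385), a synapsin, had 29, 66, 1 and 1 counts.

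Opsin and phototransduction genes summed to 819 and 840.5 CPM in MY and 522 and 586 in FO, of 38 genes 15 had no count in MY and 22 none in FO, and 1 of 5 examined was higher. In barcodes under 500 UMIs the order was the other way, with sums of 4074 and 2837 CPM in MY and 12879.9 and 8173 in FO. Cuticle and chitin genes summed to 3001 and 4549.7 against 9062 and 3529 CPM, with 46 and 44 of 99 genes at 0, 4 of 29 higher and 5 lower. Digestive genes summed to 3304 and 3028 against 4646 and 4893 CPM, ion pumps to 3086 and 2648 against 7426 and 7522, and lipid genes to 1637 and 1428 against 6633 and 8346. Germline genes summed to 4041 and 4647 against 2228 and 2019.8 CPM, with 28 of 52 at 0 in MY and 27 in FO. Basement membrane and hemocyte genes summed to 7159 and 6023 against 9574 and 7951 CPM. The part that the mix of tissues has in any single gene was not tested.

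The basement membrane and hemocyte list had 7 of 27 genes higher and 7 lower, and 6 and 12 under TMM. Each of the first counts is 25.9% of the list, where 49% of all genes were higher and 21.2% lower. The median relative to all genes was -0.34. SPINT2/PPN was the list's highest member and PXDN/CYSU (DAPMA1EVG026377), which is on it by its human symbol, its lowest. LAMB1/LANB1 (DAPMA1EVG028279), a laminin chain, had 799 and 811 CPM in MY and 311 and 488 in FO, while COL4A5/COL4A1 (DAPMA1EVG029557, likewise shared with another gene), a type IV collagen, had 52.2 and 43.8 against 211 and 232. SPARC (DAPMA1EVG019844), a collagen-binding matrix protein, overlapped at 202 and 143 against 181 and 377 CPM. Of the 3 laminin-named genes 2 were higher in MY and 1 overlapped.

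Of the genes with most counts on each side, none of those in MY reached a 4-fold ratio between the sides. In FO, FAXC/FAX, RNASET2/RNASEX25 and FTH1/FER3HCH did, and RNASET2/RNASEX25 was also among the genes farthest below FO. The genes with most counts in MY were EEF1A1/EEF1ALPHA1 (DAPMA1EVG018178), DAPMA1EVG006712, MT-CO2/MT:COII (m000184F_s0.2), CLTC/CHC (DAPMA1EVG018911) and HSPA8/HSC70 (DAPMA1EVG024963). EEF1A1/EEF1ALPHA1, an elongation factor, had 9651 and 9137 CPM against 5911 and 6257, and CLTC/CHC, clathrin heavy chain, 2717 and 3159 against 1385 and 1730. In FO the genes with most counts were DAPMA1EVG006712, FAXC/FAX (DAPMA1EVG030947), RNASET2/RNASEX25, FTH1/FER3HCH (DAPMA1EVG029148) and DAPMA1EVG010942. FAXC/FAX, named for a fly gene of axon connections, had 1295 and 1251 CPM in MY and 5359 and 9281 in FO. DAPMA1EVG006712 overlapped at 7541 and 6928 against 13929 and 6971 CPM, and MT-CO2/MT:COII at 3307 and 2844 against 3613 and 2664.

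The order of the sides was looked up in barcodes under 500 UMIs, which the choice of genes had not used. These summed to 352492 UMIs for MY1, 473091 for MY2, 119256 for FO1 and 147565 for FO2. There both MY codes were above both FO codes for 48.1% of the 4947 genes and below for 23.5%. Of the 2424 genes higher in kept barcodes 1852 were higher there too and 55 lower, and of the 1049 lower genes 739 were lower and 57 higher. With the 4-fold requirement it was 527 of 594 and 208 of 219. Small barcodes of a code come from the same suspension as its large ones and can hold RNA shed by the same cells, so they are no independent animals. In them TEX14/ILK had 854 and 1012 CPM in MY against 117 and 61.0 in FO, and FABP3/FABP 122 and 74.0 against 2038 and 2629.

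The remaining codes of the mixed sample are F4W, FYB and FYH, with 41, 1103 and 179 kept barcodes. For 1801 of the 2424 genes, and 497 of the 594, both MY codes were above these codes as well. Of the genes lower in MY, the FO codes were above all other codes for 273 of 1049, and for 56 of the 219. TEX14/ILK had 49.9 CPM in F4W, 30.2 in FYB and 9.19 in FYH, far under the MY codes and near the FO codes. RBM46/SYP had 0, 6.78 and 4.6 CPM, and SPINT2/PPN had no count in the kept barcodes of any of the 3. In barcodes under 500 UMIs, however, SPINT2/PPN had 609 CPM in F4W, 31.1 in FYB and 105 in FYH. FABP3/FABP had 1622 CPM in F4W, 566 in FYB and 225 in FYH, between the MY and the FO codes, and RNASET2/RNASEX25 had 4316, 6372 and 5133, close to FO. PXDN/PXT (DAPMA1EVG033120) had 3019 CPM in F4W, above both FO codes. Each of these codes differs from MY and FO in ways that the sources used here do not state.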

How the data were processed

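Single-cell RNA was measured in 2 samples, of which the mixed one was analysed and the other served only to count barcodes. The authors deposited raw whole-number counts per barcode and gene, per the file headers. Aligner, genome build, annotation and UMI collapsing are not given in the sources used here. The barcode list gives each barcode a library code and a lane. Barcodes with at least 500 UMIs were kept, counts were summed per code over its 2 lanes and given as CPM. Genes with at least 50 counts over the 4 sums were examined, with a count under 3 set to 3 for ratios. A gene was counted when both codes of a side lay beyond both of the other. Without samples to compare, no test was run. Poisson, binomial and ratio intervals are exact at 95% and cover counting error only. Doublets were not removed. Barcode sequences were not used, so barcodes shared between codes or lanes could not be counted; the best match of a barcode had a median r of 0.131 to 0.202 across lanes and 0.121 to 0.194 within a lane.

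The text names the first 12 genes with a symbol and the first 3 without in each direction, ranked by the gap between the nearest codes of the sides, the 5 genes with most counts a side, and members of 25 gene lists matched by symbol. In the downward ranking, 1 gene counts among the 12 but is not reported here. Families of genes with one name were counted after the values were seen. The members and lists were chosen with earlier results of these data known. None of the identifiers matched the RefSeq gene table (0 matches), so names are the files' own, no coordinates or sequences are given, and 17518 genes share their identifier with another gene. Software was Python 3.11.15, numpy 2.4.6, scipy 1.17.1, pandas 2.3.3 and edgeR 4.0.16, the last for TMM factors only. The counting procedure was tested on simulated data. Alternatives were other UMI and count minimums, TMM and median-of-ratios scaling, equal depth, single lanes, single codes left out, means of shares per barcode, and totals without mitochondrial and most abundant genes. The 4947 genes were held fixed across them, except for the count minimums and the last alternative. The totals without mitochondrial and most abundant genes left 4937 genes.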

Additional observations from a re-analysis of the deposited data

Results flagged for a closer look

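Signal outside the comparison was found in FO barcodes under 500 UMIs for genes that kept FO barcodes lacked. SPINT2/PPN (DAPMA1EVG020094), with 0 and 1 counts in the kept barcodes of FO1 and FO2, had 277 CPM (95% counting interval 190.5 to 389) in the small FO1 barcodes and 183 CPM (121 to 266) in those of FO2. DAPMA1EVG024229, with no count in kept FO barcodes, had 101 CPM (52.0 to 176) in the small FO1 barcodes and 94.9 CPM (51.9 to 159) in those of FO2. In the small MY barcodes SPINT2/PPN had 3325 and 1668 CPM and DAPMA1EVG024229 had 1169 and 708 CPM, so the order of the sides was the same there. The small barcodes were not used in the comparison, and the source of this RNA was not tested.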

How the results depend on the processing

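Over all genes, more were higher than lower in every setting. TMM turned the order of higher and lower genes for translation factors (as did median-of-ratios scaling), the nuclear respiratory chain and opsins. All 30 named genes kept the codes of one side beyond those of the other in every alternative in which they were examined. Leaving out a code or changing the count minimum could not undo this, since both reuse the same sums. No paired analysis was possible because the comparison gives no test. Merging barcodes found in both lanes was not run, since barcode sequences were not used. Below, a list's value is its median log2 ratio minus that of all genes, for lists with at least 5 examined members. TMM and median-of-ratios scaling cannot change such a value, since they shift all genes alike.

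With TMM scaling 384 genes were higher by 4-fold and the median of all genes was 0.061; with median-of-ratios scaling it was 0.20. With a minimum of 10 counts per gene 3640 genes were higher, 1653 lower and 476 lower by 4-fold, the median was 0.35, and the lists gave axoneme 0.47, mitosis 0.93, sarcomere 0.37, synaptic -0.29, opsin -0.33, digestive -0.43, basement membrane -0.57, ion pumps -1.34 and hormone receptors -0.80. With a minimum of 200 there were 796 higher and 405 lower genes, 187 and 76 by 4-fold, since fewer genes were examined; the median was 0.36, axoneme -0.74, DNA replication 2.20, glycolysis -0.53, yolk -3.43, synaptic -0.81, basement membrane -0.80, ion pumps -1.48, heat shock 0.091 and hormone receptors -2.15.

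At 300 UMIs per barcode axoneme was 1.15, basement membrane -0.66 and hormone receptors -1.17. At 1000 UMIs axoneme was 1.65, mitosis 0.88, synaptic -0.35 and hormone receptors -0.87. With all deposited barcodes condensin and cohesin was 1.33, nuclear respiratory chain -0.12, basement membrane -0.86 and hormone receptors -1.24. At equal depth axoneme was 1.32, synaptic -0.86, digestive -1.36, ion pumps -1.335 and hormone receptors -0.96. In the first lane axoneme was 0.26, yolk -0.32, synaptic -0.41, digestive -0.80, basement membrane -0.74, ion pumps -1.22 and hormone receptors -1.19. In the second lane germline was 1.12, axoneme 1.17, mitosis 0.77, basement membrane -0.65 and hormone receptors -0.90. With means of shares per barcode axoneme was 0.51, sarcomere -0.40, synaptic -0.84, opsin -0.22, digestive -0.88, basement membrane -0.77 and hormone receptors -1.30. The cause of these shifts was not tested.

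Leaving out 1 code at a time gave 369 (without FO2) to 618 genes higher by 4-fold, and a median of 0.35 to 0.48. The ranges were 0.48 to 1.07 for axoneme, 0.91 to 1.33 for mitosis, 0.73 to 1.47 for histones, 1.24 to 1.78 for condensin and cohesin, -0.47 to -0.041 for the respiratory chain, -1.32 to -0.94 for glycolysis, -0.53 to 0.16 for sarcomere, -0.67 to -0.38 for synaptic, -0.38 to 0.40 for opsin, -1.13 to -0.87 for digestive, -0.82 to -0.36 for basement membrane, -0.29 to 0.091 for heat shock and -1.57 to -1.055 for hormone receptors. Depth limits the FO side most, where 3 counts are 30.1 CPM in FO1 and 17.4 in FO2.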
